A study of Mus musculus with 16 samples.

Results

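The genes described here are 36 named components of the mouse lysosome among the 47643 genes listed in each deposited count file. They comprise 6 lysosomal membrane proteins, the 3 MiT/TFE transcription factors TFEB, TFE3 and MITF, 12 hydrolases, 2 lumenal proproteins, 1 sialic acid lyase and 12 genes of the proton pump. They were listed by name, without cathepsins, and no cut-off on a measured value entered the rule, although earlier results of these data were known when the list was drawn up. All 36 were found by matching the files' Ensembl identifiers to GENCODE M21 (GRCm38).

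The lysosome is the acidic organelle in which macrophages break down engulfed material. Its acid interior is made by the vacuolar ATPase (V-ATPase), in which a cytosolic V1 sector splits ATP and a membrane V0 sector moves protons. Many lysosomal genes carry an E-box related motif, the CLEAR element, bound by MiT/TFE factors. Alveolar macrophages take up spent lung surfactant and digest its lipids in lysosomes.

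The series compared macrophage sources from wild-type C57BL/6 mice by 3′ tag sequencing, with no treatment named. There were 4 groups with 1 library from each of mice 1, 2 and 4: alveolar macrophages cultured ex vivo (mexAM), macrophages derived from bone marrow (BMDM), and the cells of bronchoalveolar (BALF) and peritoneal (PLF) lavages. Cultures started from pooled lavages gave another 4 libraries, with pool 1 sampled at passage 8 and passage 13, and pool 2 at passage 5 and passage 10. The 2 passages of a pool are the same culture line and not independent samples. The sources used here do not give the age and sex of the mice, the culture media, any cell sorting, the passage of the mexAM cultures or the number of mice per pool.

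The 16 libraries held 827791 to 2884679 counts in genes. Marker genes set the alveolar samples apart: 8 alveolar macrophage markers summed to 8394 to 12396 counts per 1000000 counts in genes (CPM) in BALF, 5483 to 8843 in mexAM and 4361 to 5771 in the pools, against 282 to 329 in PLF and 281 to 466 in BMDM. The libraries are bulk samples, so fewer cells of a type and less RNA per cell cannot be told apart. PLF held other cells: 7 B cell markers summed to 1982 to 2297 CPM there against at most 142 elsewhere, 6 mast cell markers to 1895 to 2074 against at most 7.97, and 6 T and NK cell markers to 75.8 to 82.6 against at most 2.45. In BMDM, 6 neutrophil markers summed to 1935 to 5383 CPM, against at most 401 in any other library. In BALF, 4 haemoglobin genes summed to 33.6 to 627 CPM. These values move with every comparison that uses PLF, BMDM or BALF, and their part in the results was not tested.

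Levels are given as CPM of each library, listed in the order of mice 1, 2 and 4. Since the assay reads 1 tag near the 3′ end of a transcript, CPM was not divided by length. A difference is a log2 fold change ± its standard error from edgeR's quasi-likelihood test, fitted to all genes with TMM scaling. A gene was called where its p, adjusted by Benjamini-Hochberg over all genes tested (edgeR adjusted p), was under 0.05. Of the 36 genes, 34 passed the filter on low counts in the fit of BALF, mexAM, BMDM and PLF. Npl and Atp6v0c did not pass.

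Promoter sequence shows where the CLEAR-like letters stand in these genes. RefSeq promoter entries of 300 bases (250 before and 50 after the gene start, GRCm38.p6) matched 31 of the 36 genes, with 40 promoters between them. The E-box core CACGTG, searched on both strands, was found in 10 of the 40 promoters (25.0%) and in 7.15% of all 32851 promoters. Its 8-letter palindromic extension TCACGTGA was found in 5 of 40 (12.5%), against 0.974% of all promoters. The other extension, GTCACGTG or its reverse complement, was found in 6 of 40 (15.0%), against 2.25%. Both extensions contain CACGTG, so the counts overlap. Asah1, Atp6v0d2, Atp6v1b2, Atp6v1c1 and Atp6v1h have no entry in the table. The genes with TCACGTGA are shown because they span 3 roles: a channel (Mcoln1), a hydrolase (Gla) and subunits of both pump sectors. Capitals mark TCACGTGA, and each run is the 5′ to 3′ strand of the gene.
Mcoln1: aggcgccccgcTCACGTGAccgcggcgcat
Atp6v0d1: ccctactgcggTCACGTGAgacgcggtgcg
Atp6v1a: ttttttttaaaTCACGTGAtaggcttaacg
Atp6v0e: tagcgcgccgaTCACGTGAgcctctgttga
Gla: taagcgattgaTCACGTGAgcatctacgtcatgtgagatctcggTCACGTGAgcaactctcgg
These windows lie at chr8:3500462-3500491 on the plus strand (Mcoln1), chr8:105566050-105566079 on the minus strand (Atp6v0d1), chr16:44139373-44139402 on the minus strand (Atp6v1a), chr17:26676387-26676416 on the plus strand (Atp6v0e) and chrX:134601182-134601244 on the minus strand (Gla), in GRCm38.p6. The motif of Mcoln1 begins 46 bases before the RefSeq gene start and that of Atp6v0d1 begins 4 bases before it. In Gla, which holds the palindrome at 2 places, the matches begin 228 and 195 bases before the RefSeq start. GENCODE M21 places some starts elsewhere. By its coordinates the windows of Mcoln1 (gene from chr8:3500457), Atp6v0e (from chr17:26663231) and Atp6v1a (minus strand, from chr16:44139705) lie inside the genes. A match is a match of letters and was not tested as a binding site. All 5 genes were called higher than in PLF in mexAM (28.4% of all genes) and in BALF (19.5%). In each of these comparisons 25 of the 34 tested members were called higher, so such calls are not particular to genes with the motif. For Atp6v1a and Gla the mexAM calls over PLF were lost without some single libraries. Between mexAM and BALF, Atp6v1a and Gla were called lower in mexAM, and both calls were lost in several settings given below. Mcoln1, Atp6v0d1 and Atp6v0e were not called in that comparison.

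Among the 4 groups of single mice, 33 of the 34 tested genes differed (edgeR quasi-likelihood test of any difference, 70.9% of all 10011 genes tested). The exception was Lamp2, which encodes a structural protein of the lysosomal membrane and a receptor of chaperone-mediated autophagy (edgeR adjusted p = 0.218). Lamp2 stood at 700, 885 and 592 CPM in BALF, at 730, 660 and 605 in mexAM, at 1060, 904 and 803 in BMDM and at 733, 1010 and 1004 in PLF. Its groups overlapped in most pairs. Laptm4a passed this test narrowly (edgeR adjusted p = 0.0478) and did not pass with the mouse number as a block, with either other scaling, with DESeq2, without Gm42418 and mitochondrial genes, or without any 1 of BALF of mouse 1, BMDM of mouse 2 or 4, mexAM of mouse 1 or 2 or PLF of mouse 1, 2 or 4. Gaa (edgeR adjusted p = 0.0293) did not pass with DESeq2, or without BALF of mouse 1, mexAM of mouse 4 or PLF of mouse 2 or 4.

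Most of the 12 pump genes were higher in the alveolar samples than in the other groups. Of 6 further pump genes tested, 2 were higher in mexAM and 0 in BALF against BMDM. The 12 pump genes summed to 6979, 7462 and 5198 CPM in BALF and to 7376, 6933 and 6308 in mexAM. In BMDM the sum was 3574, 3187 and 3573 CPM, and in PLF it was 2239, 2161 and 2276. Every BALF and mexAM library was above every BMDM and PLF library. Against BMDM, 8 of the 11 tested pump genes were higher in mexAM and none was lower, where 44.6% of all genes were called (21.5% higher, 23.0% lower). Of these 8, the call of Atp6ap2 (0.61, edgeR adjusted p = 0.0357) was lost with library totals only (0.53). It was also lost without BMDM of mouse 2 (0.53) or 4 (0.58) or mexAM of mouse 1 (0.37). That of Atp6v1b2 was lost in settings given below. In BALF against BMDM, 9 of 11 were higher and none was lower, where 37.4% of all genes were called (18.2% higher, 19.3% lower). Against PLF, 10 of 11 were higher and 1 (Atp6v1h) lower in mexAM, where 57.9% of all genes were called (28.4% higher, 29.6% lower). All 11 were higher in BALF than in PLF, where 40.3% were called (19.5% higher, 20.8% lower). The weakest of these calls was Atp6v1h in BALF over PLF (0.50 ± 0.19, edgeR adjusted p = 0.0457), whose groups overlapped and which did not pass with the mouse number as a block (edgeR adjusted p = 0.0737), with DESeq2, with either other scaling (0.45 and 0.25), without the low-count filter, without BALF of mouse 1 (0.47) or 2 (0.35), or without PLF of mouse 2 (0.38) or 4 (0.57). These comparisons share libraries, so their counts are not independent.

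Atp6v0d2 (ENSMUSG00000028238, chr4:19876841-19922605, minus strand) carried the widest contrast of all 36 genes. It encodes the d2 form of the V0 sector's d subunit, known from osteoclasts and some macrophages. Its level was 1833, 1865 and 1018 CPM in BALF, and 2196, 2251 and 1855 CPM in mexAM. It was 27.1, 35.7 and 139 CPM in BMDM and 18.2, 22.3 and 8.63 CPM in PLF. No alveolar library came near a BMDM or PLF library, and within BMDM the library of mouse 4 stood well above the others. The gene was higher than in BMDM by 5.04 ± 0.57 in mexAM (edgeR adjusted p = 9.21e-06) and by 4.82 ± 0.57 in BALF (edgeR adjusted p = 1.79e-05). Over PLF the log2 differences were 7.07 ± 0.65 in mexAM (edgeR adjusted p = 9.42e-07) and 6.85 ± 0.65 in BALF (edgeR adjusted p = 2.17e-06). Between mexAM and BALF it did not pass (log2 difference 0.22 ± 0.47, edgeR adjusted p = 0.769). It was lower in PLF than in BMDM by a log2 fold change of -2.03 ± 0.59 (edgeR adjusted p = 0.016), a call that rested on single libraries: it was -0.91 without BMDM of mouse 4 (edgeR adjusted p = 0.0736) and -1.69 without PLF of mouse 4 (edgeR adjusted p = 0.0721), and it was lost without the low-count filter (edgeR adjusted p = 0.079).

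Atp6v0d1 (ENSMUSG00000013160, chr8:105524465-105566047, minus strand), the widely expressed d1 form of the same subunit, differed far less. It stood at 213, 235 and 157 CPM in BALF, at 222, 213 and 197 in mexAM, at 127, 131 and 121 in BMDM and at 125, 89.2 and 96.2 in PLF. The alveolar libraries were all above the others, without overlap. The log2 difference over BMDM was 0.82 ± 0.20 in mexAM (edgeR adjusted p = 0.00267) and 0.96 ± 0.20 in BALF (edgeR adjusted p = 0.00102). The number of d2 tags per d1 tag was 6.50 to 8.59 in BALF, 9.40 to 10.6 in mexAM and 6.42 to 8.89 in the pools. It was 0.214 to 1.15 in BMDM and 0.0897 to 0.25 in PLF, so d2 was the more abundant form in the alveolar libraries and in 1 of the 3 BMDM libraries, that of mouse 4. Atp6v0d2 made up 19.6% to 26.3% of the pump sum in BALF, 29.4% to 32.5% in mexAM, 0.758% to 3.89% in BMDM and 0.379% to 1.03% in PLF.

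**Figure D1:**
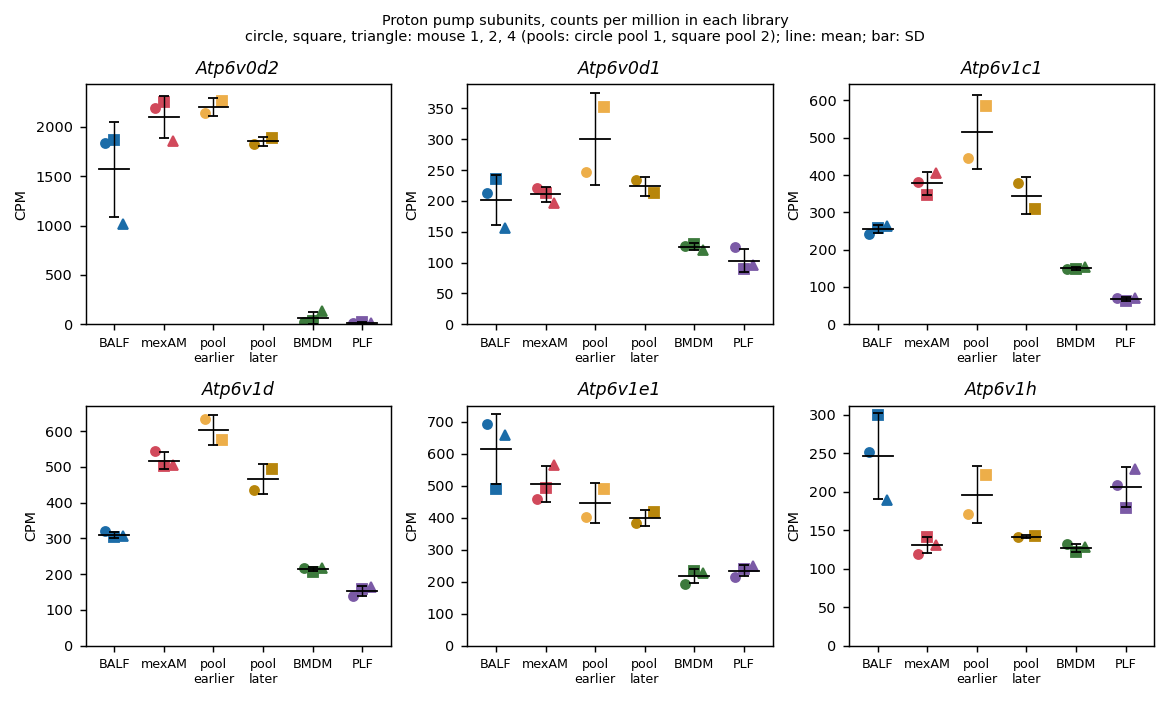
CPM of 6 proton pump genes (vertical axes, linear, from 0) in each library, by group; points are libraries, lines are group means and bars are SD over 3 mice (over 2 pools for the cultured pools). Atp6v0d2 sits between 1018 and 2265 CPM in all alveolar libraries and at or below 139 CPM in BMDM and PLF, whereas Atp6v1h is higher in BALF and PLF than in mexAM and BMDM.

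Atp6v1c1, Atp6v1e1 and Atp6v1b2 were also higher in both alveolar groups than in BMDM and PLF, with smaller differences. Atp6v1c1, a stalk subunit that joins V1 to V0, stood at 243, 259 and 263 CPM in BALF and 380, 346 and 407 in mexAM, against 148, 148 and 154 in BMDM and 70.7, 62.4 and 70.3 in PLF. Its 4 groups did not overlap. The log2 fold change over BMDM was 1.41 ± 0.16 in mexAM (edgeR adjusted p = 1.88e-06) and 1.05 ± 0.16 in BALF, and over PLF it was 2.51 ± 0.17 in mexAM and 2.15 ± 0.17 in BALF (edgeR adjusted p = 3.06e-08). PLF was below BMDM by -1.10 ± 0.17. Atp6v1e1, which encodes a peripheral stalk subunit, was at 693, 489 and 660 CPM in BALF and 458, 491 and 566 in mexAM, against 193.9, 232 and 229 in BMDM and 216, 239 and 250 in PLF. Both alveolar groups lay above both others, by 1.78 ± 0.19 for BALF over BMDM (edgeR adjusted p = 1.34e-06) and 1.29 ± 0.19 for mexAM over BMDM. Atp6v1b2, the B2 form of the subunit pair that binds ATP, was at 666, 932 and 553 CPM in BALF, 718, 558 and 479 in mexAM, 389, 333 and 412 in BMDM and 153, 214 and 225 in PLF. All BALF and mexAM libraries exceeded all BMDM and PLF libraries, and the log2 difference of BALF over PLF was 2.11 ± 0.23 (edgeR adjusted p = 1.31e-06). The call over BMDM in mexAM (0.71 ± 0.22, edgeR adjusted p = 0.0145) was lost without BMDM of mouse 2 (0.64) or mexAM of mouse 1 (0.52).

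Between mexAM and BALF 3 of the 11 tested pump genes were called, 1 higher and 2 lower in mexAM. This share was near the 30.0% of all genes called there (15.2% higher, 14.8% lower). Atp6v1d, a subunit of the rotating shaft, was at 320, 303 and 306 CPM in BALF and 544, 501 and 505 in mexAM, and at 217, 206 and 217 in BMDM and 138, 158 and 165 in PLF. All mexAM libraries were above all others, with a log2 difference of 0.53 ± 0.16 over BALF (edgeR adjusted p = 0.0183) and of 1.36 ± 0.16 over BMDM. The call over BALF was lost without BALF of mouse 2 (0.50, edgeR adjusted p = 0.0682) and without the low-count filter (edgeR adjusted p = 0.0602). Atp6v1h, a subunit that regulates the coupling of V1 to V0, was at 251, 300 and 189 CPM in BALF, 120, 141 and 131 in mexAM, 132, 121 and 128 in BMDM and 209, 178 and 230 in PLF. The BALF libraries were all above the mexAM libraries, and the log2 difference of mexAM from BALF was -1.12 ± 0.19 (edgeR adjusted p = 0.000343). BALF was also above BMDM, by 1.24 ± 0.19. It was the only tested pump gene called lower in mexAM than in PLF (-0.62 ± 0.19, edgeR adjusted p = 0.011). Atp6v1a, the catalytic A subunit, was at 1427, 1554 and 898 CPM in BALF, 781, 1048 and 862 in mexAM, 1288, 1072 and 1085 in BMDM and 706, 422 and 511 in PLF. BALF of mouse 4 overlapped the mexAM libraries. The log2 difference of mexAM over BALF was -0.73 ± 0.25 (edgeR adjusted p = 0.0337), and it was lost without BALF of mouse 1 (-0.64) or 2 (-0.60), without mexAM of mouse 1 (-0.64) or 4 (-0.67), and when only library totals were used for scaling (-0.53). Atp6v1a was lower in PLF than in BMDM by -1.02 ± 0.25 (edgeR adjusted p = 0.00366), and it was the only pump gene of the 11 whose log2 estimate in mexAM was below BMDM.

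The remaining pump genes were Atp6ap1 and Atp6ap2, accessory proteins, Atp6v0e, a small V0 subunit, and Atp6v0c, the proton-carrying ring subunit. Group means ran from 175 CPM in PLF to 532 CPM in mexAM for Atp6ap1, from 321 in PLF to 589 in BALF for Atp6ap2 and from 201 in PLF to 476 in mexAM for Atp6v0e. None of these was called between mexAM and BALF. Atp6ap1 was at 836 CPM in mexAM of mouse 1 against 374 and 387 in the other mexAM libraries. Atp6v0c received 58 counts in all 16 libraries together, between 0 and 5.52 CPM, and its annotated copies Atp6v0c-ps1 and Atp6v0c-ps2 received 0. Since the sources used here give neither the strand rule nor the handling of multiply mapped reads, the level of Atp6v0c is uncertain.

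The summed hydrolase level was lower in PLF than in the alveolar groups, like that of the pump, but not lower in BMDM. The 12 hydrolase genes summed to 4007, 4112 and 3221 CPM in BALF, 3289, 3750 and 3019 in mexAM, 4300, 3896 and 4279 in BMDM and 2253, 1637 and 1714 in PLF. In these sums PLF was below the other groups, and BMDM and BALF overlapped. The gap between PLF and BALF and the overlap of BMDM with BALF depended on Lipa. Its level was 1726 to 2317 CPM in BALF, 1206 to 1613 in BMDM and 244 to 704 in PLF. With Lipa left out of the sums, BALF overlapped PLF, and BMDM lay above BALF without overlap. PLF stayed below mexAM and BMDM. Of the 12, 2 were higher and 4 lower in mexAM than in BMDM, beside 44.6% of all genes called. In BALF against BMDM 2 were likewise higher and 4 lower, beside 37.4%, so both shares were near the background. Against PLF, 8 were higher and 3 lower in mexAM, beside 57.9% of all genes called, and in BALF the numbers were the same, beside 40.3%.

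Set as a ratio within each library, pump tags per hydrolase tag were 1.74, 1.81 and 1.61 in BALF and 2.24, 1.85 and 2.09 in mexAM. The ratio was 0.831, 0.818 and 0.835 in BMDM and 0.994, 1.32 and 1.33 in PLF. The 4 groups did not overlap, and BMDM had fewer pump than hydrolase tags in all 3 libraries. On the log2 scale mexAM exceeded BMDM by 1.31 and BALF exceeded BMDM by 1.06, where the SD over mice was 0.14 in mexAM, 0.09 in BALF and 0.02 in BMDM. Leaving out the most counted gene of each list, Atp6v0d2 and Lipa, gave 0.94 and 1.25. The step from BALF to mexAM was 0.25 and turned direction with the choice of genes: it was -0.31 without Atp6v0d2 and Lipa, -0.23 when each gene weighed equally, -0.09 with the lists widened and -0.03 with Psap, Grn and Npl added to the hydrolases. PLF exceeded BMDM by 0.54, a difference of -0.38 with the widened lists. These add 13 pump genes and 28 hydrolases and activators, and which of them turned the direction was not tested. The ratio of sums is a description with no test. Without Atp6v0d2, pump tags per hydrolase tag were 1.28 to 1.36 in BALF, 1.25 to 1.58 in mexAM, 0.802 to 0.825 in BMDM and 0.986 to 1.32 in PLF, so BMDM remained the lowest group while the others overlapped.

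**Figure D2:**
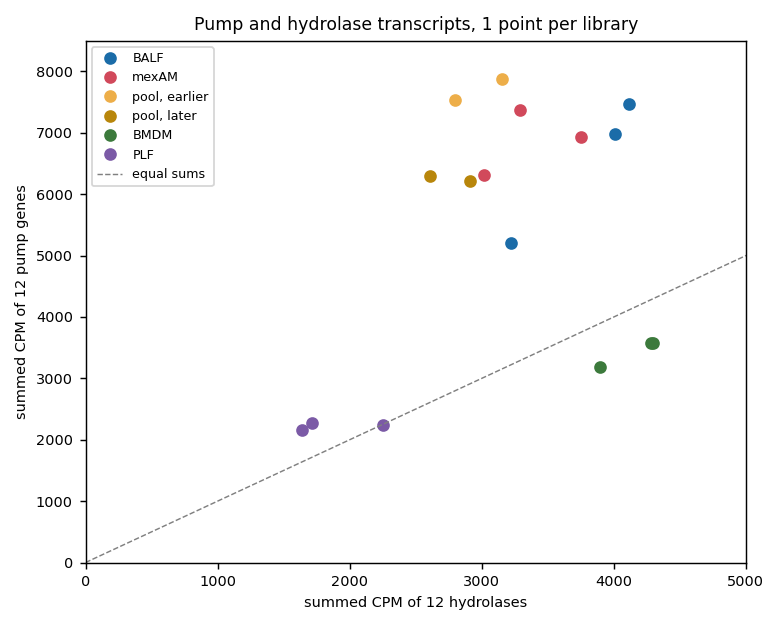
Summed CPM of the 12 pump genes (vertical axis) against summed CPM of the 12 hydrolases (horizontal axis), 1 point per library, coloured by group; the dashed line marks equal sums. The 3 BMDM libraries lie below the line at ratios of 0.818 to 0.835, and the BALF, mexAM and pool libraries lie above it at ratios of 1.61 to 2.70.

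Lipa, the lysosomal acid lipase that hydrolyses cholesteryl esters and triglycerides, was the most counted hydrolase. Its level was 2243, 2317 and 1726 CPM in BALF, 1218, 1629 and 1167 in mexAM, 1464, 1206 and 1613 in BMDM and 704, 244 and 274 in PLF. PLF lay below all other libraries, and BALF lay above mexAM without overlap. The log2 difference over PLF was 2.58 ± 0.36 in BALF (edgeR adjusted p = 3.12e-05), 1.73 ± 0.35 in mexAM (edgeR adjusted p = 0.000568), and PLF was below BMDM by -1.74 ± 0.35 (edgeR adjusted p = 0.00102). Lipa was not called between mexAM and BALF. Pld3, a lysosomal exonuclease of single-stranded nucleic acids, stood at 518, 594 and 468 CPM in BALF and 609, 526 and 374 in mexAM, against 201, 167 and 265 in BMDM and 51.3, 61.5 and 61.6 in PLF. Alveolar libraries were highest and PLF lowest, with no overlap between these, BMDM and PLF. Pld3 was higher than in PLF by 3.43 ± 0.25 in BALF (edgeR adjusted p = 8.23e-09) and 3.16 ± 0.24 in mexAM, and higher than in BMDM by 1.60 ± 0.22 and 1.34 ± 0.22 (edgeR adjusted p = 8.95e-05 for mexAM). In PLF it was below BMDM by -1.83 ± 0.24.

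Lgmn marked the bone marrow derived cells. It encodes legumain, an asparaginyl endopeptidase, and stood at 748, 686 and 771 CPM in BMDM, against 126, 120 and 120 in BALF, 124, 127 and 139 in mexAM and 251, 210 and 276 in PLF. BMDM was above every other library, and BALF and mexAM overlapped at the lowest level. The log2 difference from BMDM was -2.42 ± 0.18 in mexAM (edgeR adjusted p = 7.47e-09) and -2.30 ± 0.18 in BALF (edgeR adjusted p = 2.78e-08), and in PLF it was -1.54 ± 0.17. Hexa, the alpha subunit of beta-hexosaminidase, was at 643, 669 and 598 CPM in BMDM against 189 to 308 CPM in the BALF, mexAM and PLF libraries. It was lower than in BMDM by -1.09 ± 0.19 in mexAM, -1.16 ± 0.19 in BALF and -1.41 ± 0.19 in PLF (edgeR adjusted p = 2e-05). The gene overlaps Tmem202 on the other strand, which had at most 13.8 CPM.

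Of the 12 hydrolases 3 were called between cultured and lavaged alveolar macrophages, 2 higher and 1 lower in mexAM. This share was near the 30.0% of all genes called there (15.2% higher, 14.8% lower). Man2b1, the lysosomal alpha-mannosidase, was at 199, 168 and 169 CPM in BALF and 371, 342 and 386 in mexAM. It was at 393, 406 and 313 CPM in BMDM and 549, 499 and 480 in PLF. BALF was lowest without overlap, and mexAM exceeded it by 0.83 ± 0.18 (edgeR adjusted p = 0.00231). Neu1, a sialidase, was at 75.7, 74.1 and 115 CPM in BALF and 196, 163 and 148 in mexAM, with 69.6, 74.1 and 78.4 in BMDM and 47.4, 78.5 and 50.5 in PLF. All mexAM libraries were above all others. The log2 difference was 0.73 ± 0.22 over BALF (edgeR adjusted p = 0.0213) and 1.27 ± 0.22 over BMDM (edgeR adjusted p = 0.000173), and the first was lost without BALF of mouse 1 (0.63) or 2 (0.60) or mexAM of mouse 1 (0.60). Gla, alpha-galactosidase A, was at 204, 228 and 103 CPM in BALF and 98.7, 125 and 104 in mexAM, with 87.5, 84.3 and 107 in BMDM and 88.9, 38.3 and 47.5 in PLF. BALF of mouse 4 fell within the mexAM values, and the gene was lower in mexAM in 2 of 3 mice. The log2 difference of mexAM over BALF was -0.91 ± 0.31 (edgeR adjusted p = 0.0368). It was lost without BALF of mouse 1 (-0.78) or 2 (-0.72), without mexAM of mouse 1 (-0.85) or 4 (-0.84), and with library totals only (-0.70). BALF exceeded BMDM by 1.22 ± 0.31 (edgeR adjusted p = 0.0057), where the groups overlapped, and PLF by 1.83 ± 0.32 (edgeR adjusted p = 0.000281).

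Of the others, Glb1, a beta-galactosidase, was highest in PLF, at 99.3, 95.4 and 96.8 CPM, against 31.8, 40.6 and 27.0 in BALF, 30.2, 26.3 and 34.2 in mexAM and 65.7, 67.9 and 40.4 in BMDM. PLF did not overlap any other group, and mexAM was below it by -1.64 ± 0.22 (edgeR adjusted p = 7.4e-06). Glb1 shares its strand with the overlapping gene Tmppe (9.39 to 26.6 CPM), so reads of the pair may be split. Asah1, acid ceramidase, was at 72.0, 58.9 and 76.4 CPM in PLF, below 174, 147 and 135 in BALF, 114, 256 and 178 in mexAM and 297, 211 and 180 in BMDM. PLF was lowest without overlap, by -1.68 ± 0.27 against BMDM (edgeR adjusted p = 0.00011). Gusb, beta-glucuronidase, ranged from a mean of 107 CPM in PLF to 277 CPM in BMDM. Gaa, the glycogen-degrading acid glucosidase, and Smpd1, acid sphingomyelinase, were low in all groups, with means of 14.3 to 28.3 CPM and 9.68 to 23.6 CPM in the 4 groups of single mice. None of Glb1, Asah1, Gusb, Gaa, Smpd1, Hexa, Lipa, Pld3 and Lgmn was called between mexAM and BALF.

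**Figure D3:**
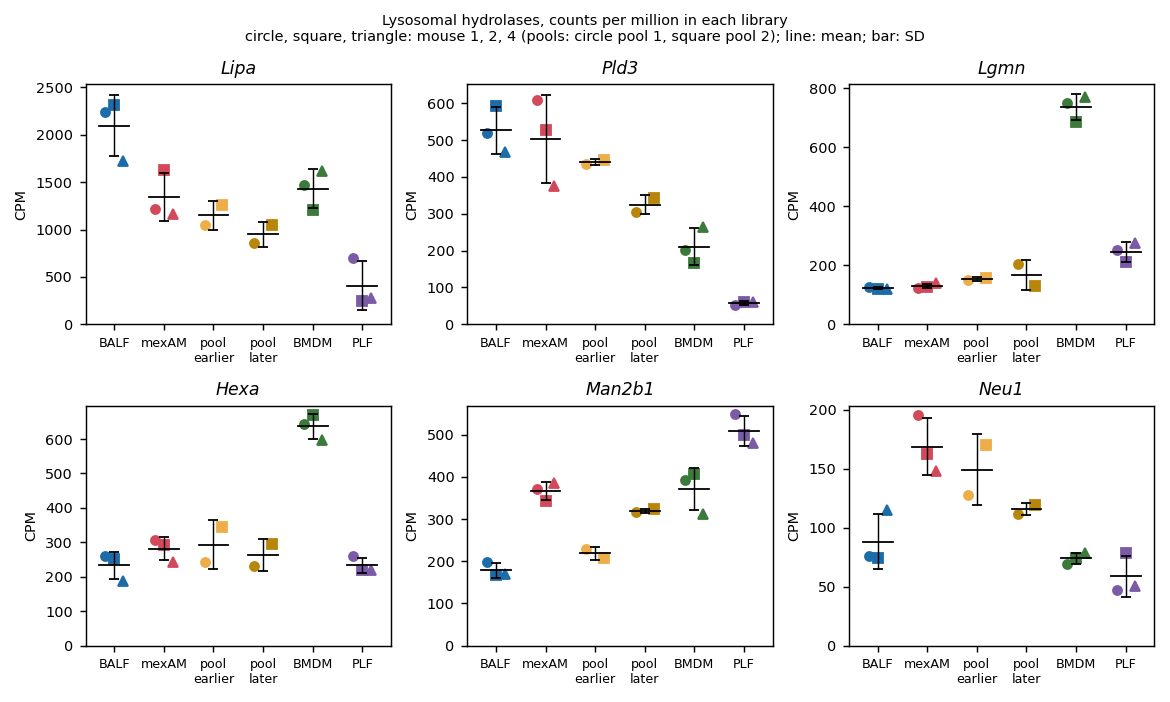
CPM of 6 lysosomal hydrolases (vertical axes, linear, from 0) in each library, by group; points are libraries, lines are group means and bars are SD over 3 mice or 2 pools. Lgmn stands at 686 to 771 CPM in BMDM and at or below 276 CPM elsewhere, and Man2b1 is at 168 to 199 CPM in BALF against 342 to 386 CPM in mexAM.

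The MiT/TFE factors were the one role in which every member was called lower in cultured than in lavaged alveolar macrophages. Of all genes 14.8% were called lower there, and the call of Tfeb was lost in several settings given below. Mitf (ENSMUSG00000035158, chr6:97807052-98021349, plus strand), known from melanocytes, osteoclasts and mast cells, was at 282, 286 and 235 CPM in BALF and 64.5, 53.0 and 70.8 in mexAM. It was at 226, 171 and 185 CPM in BMDM and 174, 281 and 239 in PLF. The mexAM libraries were below every library of the other 3 groups, which overlapped in part. The log2 difference of mexAM was -2.30 ± 0.20 from BALF (edgeR adjusted p = 2.74e-07), -1.55 ± 0.20 from BMDM (edgeR adjusted p = 5.08e-06) and -1.83 ± 0.20 from PLF (edgeR adjusted p = 5.7e-07). Mitf was higher in BALF than in BMDM by 0.75 ± 0.19 (edgeR adjusted p = 0.00453), which fell to 0.46 with library totals only (edgeR adjusted p = 0.087). Mitf in PLF was not called against BALF (edgeR adjusted p = 0.0577) or BMDM (edgeR adjusted p = 0.263). The mast cell markers named above were detected in PLF, and the part of mast cells in its Mitf level was not tested.

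Tfe3 (ENSMUSG00000000134, chrX:7762560-7775202, plus strand), a broadly expressed member of the family, stood at 85.9, 96.4 and 86.4 CPM in BALF and 49.9, 35.5 and 31.3 in mexAM. Its level was 104, 107 and 117 CPM in BMDM and 95.4, 106 and 92.5 in PLF. Again the mexAM libraries lay below all others. The log2 difference of mexAM was -1.41 ± 0.20 from BALF (edgeR adjusted p = 6.67e-05), -1.42 ± 0.20 from BMDM (edgeR adjusted p = 1.78e-05) and -1.29 ± 0.20 from PLF (edgeR adjusted p = 3.82e-05). BALF, BMDM and PLF were not called against each other for Tfe3.

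Tfeb (ENSMUSG00000023990, chr17:47737030-47792419, plus strand), the best known regulator of lysosome formation, was the least counted of the factors, at 33.6, 35.5 and 34.7 CPM in BALF, 28.5, 18.0 and 24.3 in mexAM, 22.2, 21.3 and 26.4 in BMDM and 5.84, 3.57 and 8.63 in PLF. BALF was above all other groups and PLF below them, and mexAM overlapped BMDM. The log2 difference of mexAM over BALF was -0.76 ± 0.25 (edgeR adjusted p = 0.0306). It did not pass with library totals only (-0.55), without the low-count filter (-0.74), with DESeq2 (-0.77, DESeq2 adjusted p = 0.054), without BALF of mouse 1 (-0.78), 2 (-0.76) or 4 (-0.75), or without mexAM of mouse 2 (-0.62) or 4 (-0.76). PLF was lower in Tfeb than BMDM by -1.85 ± 0.31 (edgeR adjusted p = 0.000176), while BALF exceeded PLF by 2.70 ± 0.31 (edgeR adjusted p = 2.09e-06) and mexAM exceeded PLF by 1.94 ± 0.31. BALF exceeded BMDM by 0.86 ± 0.26 (edgeR adjusted p = 0.0141), which was lost without BMDM of mouse 1 (0.80) or 2 (0.80) and with library totals only (0.57).

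**Figure D4:**
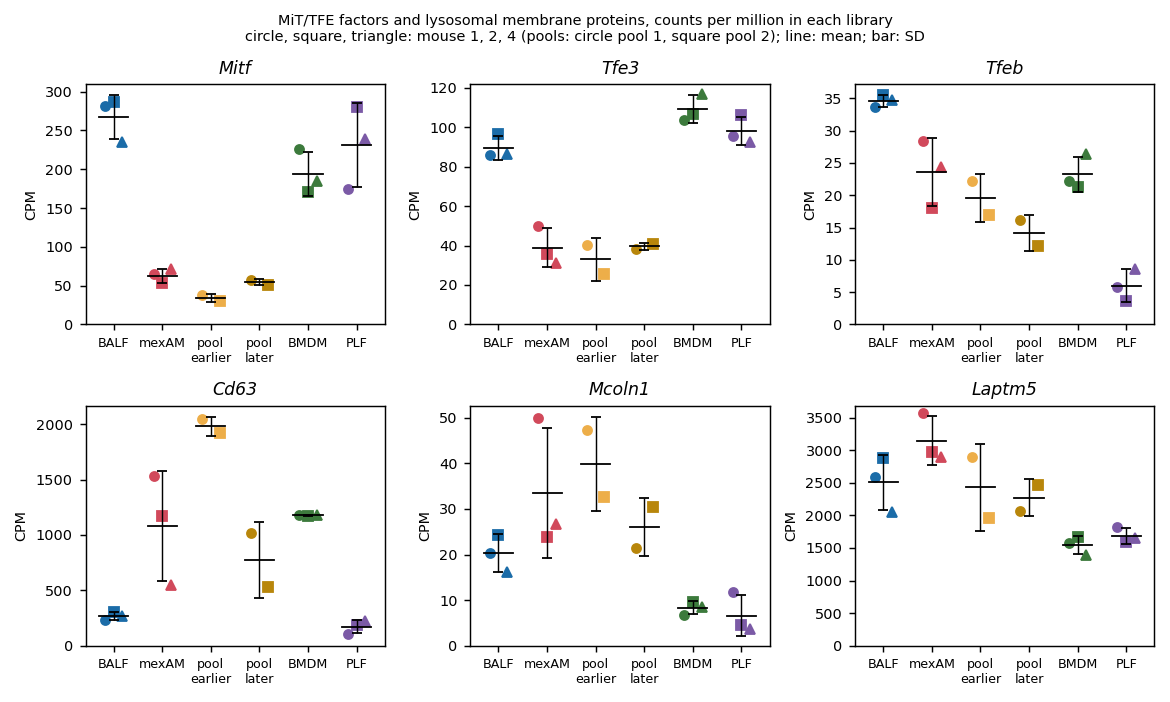
CPM of the 3 MiT/TFE factors and 3 lysosomal membrane genes (vertical axes, linear, from 0) in each library, by group; points are libraries, lines are group means and bars are SD over 3 mice or 2 pools. Mitf stands at 53.0 to 70.8 CPM in mexAM against 171 to 286 CPM in BALF, BMDM and PLF, and Cd63 spans 549 to 1531 CPM within mexAM.

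Of the 6 membrane genes only Cd63 was called between mexAM and BALF. Cd63 (ENSMUSG00000025351, chr10:128900989-128912822, plus strand), a tetraspanin of late endosomes, lysosomes and secretory granules, was at 236, 307 and 266 CPM in BALF and 1531, 1173 and 549 in mexAM. It was at 1179, 1175 and 1183 CPM in BMDM and 104, 185 and 224 in PLF. The mexAM libraries were all above BALF and differed widely among themselves, whereas the BMDM libraries were nearly equal. The log2 difference was 1.82 ± 0.32 of mexAM over BALF (edgeR adjusted p = 0.000549), 2.73 ± 0.33 of mexAM over PLF (edgeR adjusted p = 4.09e-06), -1.85 ± 0.32 of BALF from BMDM (edgeR adjusted p = 0.000259) and -2.76 ± 0.33 of PLF from BMDM. The call of BALF over PLF (0.91 ± 0.32, edgeR adjusted p = 0.0326) was lost without BALF of mouse 2 (0.82) or 4 (0.90), without PLF of mouse 1 (0.68) or 2 (0.94) and with library totals only (0.65). The copy Cd63-ps received 96 counts in all libraries, against 21005 for Cd63.

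Mcoln1 (ENSMUSG00000004567, chr8:3500457-3515232, plus strand), the lysosomal calcium channel TRPML1, was a low-count gene at 20.4, 24.4 and 16.2 CPM in BALF and 49.9, 23.8 and 26.8 in mexAM, against 6.77, 9.60 and 8.58 in BMDM and 11.7, 4.46 and 3.70 in PLF. Alveolar libraries were above all others. The log2 difference over BMDM was 2.09 ± 0.38 in mexAM (edgeR adjusted p = 0.00025) and 1.57 ± 0.41 in BALF (edgeR adjusted p = 0.00574), and over PLF it was 2.32 ± 0.41 and 1.81 ± 0.44 (edgeR adjusted p = 0.00293 for BALF). Laptm5, a lysosomal protein of blood cells, stood at 2582, 2886 and 2053 CPM in BALF and 3573, 2967 and 2898 in mexAM, against 1574, 1672 and 1398 in BMDM and 1818, 1584 and 1650 in PLF. Its alveolar libraries were again all higher, with log2 differences over BMDM of 1.11 ± 0.20 in mexAM and 0.98 ± 0.20 in BALF (edgeR adjusted p = 0.000914), and over PLF of 0.94 ± 0.20 and 0.82 ± 0.20.

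Lamp1, the other major structural glycoprotein of the membrane, was highest in BMDM. It was at 884, 813 and 774 CPM in BALF, 1080, 1140 and 946 in mexAM, 1688, 1482 and 1304 in BMDM and 647, 705 and 612 in PLF. BMDM was highest and PLF lowest, and none of the groups overlapped. The log2 difference of PLF from BMDM was -1.15 ± 0.18 (edgeR adjusted p = 9.56e-05), and that of mexAM over PLF was 0.74 ± 0.18 (edgeR adjusted p = 0.00235). BALF was below BMDM by -0.57 ± 0.18 (edgeR adjusted p = 0.0204), lost without BALF of mouse 2 (-0.54) or 4 (-0.54) or BMDM of mouse 1 (-0.49) or 2 (-0.56). BALF was above PLF by 0.58 ± 0.18 (edgeR adjusted p = 0.0169), lost without BALF of mouse 1 (0.51), without PLF of mouse 4 (0.53) and with library totals only (0.33). The mexAM and BMDM groups did not pass for Lamp1 (-0.41 ± 0.18, edgeR adjusted p = 0.0747). Laptm4a, a membrane protein of late endosomes and lysosomes, had means from 604 CPM in PLF to 1051 CPM in mexAM, and was called only in mexAM over PLF among the 6 comparisons of these groups. That call was lost without mexAM of mouse 1.

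Psap and Grn encode proproteins that are cut in the lysosome into saposins, activators of sphingolipid breakdown, and granulins. Psap was at 1000, 1596 and 1094 CPM in BALF, 1622, 1722 and 1419 in mexAM, 4405, 3242 and 2234 in BMDM and 391, 738 and 740 in PLF. BMDM was highest, with a wide spread, and PLF lowest. The log2 difference from BMDM was -1.13 ± 0.27 in BALF (edgeR adjusted p = 0.00287), -0.96 ± 0.27 in mexAM (edgeR adjusted p = 0.00737) and -2.37 ± 0.28 in PLF (edgeR adjusted p = 4.47e-06), and the mexAM call was lost without BMDM of mouse 1 (-0.72). Over PLF, Psap was higher by 1.41 ± 0.27 in mexAM and 1.24 ± 0.27 in BALF. Grn was at 510, 521 and 393 CPM in BALF, 1471, 736 and 723 in mexAM, 1362, 1286 and 1445 in BMDM and 629, 763 and 834 in PLF. BALF was below all other groups, and mexAM of mouse 1 stood apart from the other 2 mexAM libraries. Grn was higher in mexAM than in BALF by 0.84 ± 0.25 (edgeR adjusted p = 0.0179), a call lost without mexAM of mouse 1 (0.41, edgeR adjusted p = 0.136) or BALF of mouse 4 (0.74, edgeR adjusted p = 0.0674). BALF and PLF were below BMDM in Grn by -1.24 ± 0.25 (edgeR adjusted p = 0.000826) and -0.85 ± 0.25 (edgeR adjusted p = 0.0135). Npl, a cytosolic enzyme that splits the sialic acid released by lysosomes, had 0.649 to 9.25 CPM in the 12 libraries of single mice.

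Counted over all roles, mexAM differed from BALF in 11 of 34 genes, with 5 higher and 6 lower, where 30.0% of all genes passed the test (15.2% higher, 14.8% lower). The members' median log2 fold change was 0.02, beside 0.01 for all genes. Scaling by library totals alone shifted the median of all genes by 0.21 and gave 7 higher and 3 lower, with a members' median of 0.23 beside 0.22. In mexAM against BMDM 12 were higher and 7 lower, beside 44.6% of all genes (medians 0.11 and 0.00), and in BALF against BMDM 15 were higher and 8 lower, beside 37.4% (medians 0.50 and -0.03). In mexAM against PLF 25 were higher and 6 lower, beside 57.9% of all genes (medians 0.97 and -0.02), and in BALF against PLF 25 were higher and 3 lower, beside 40.3% (medians 1.07 and -0.01). In PLF against BMDM 3 were higher and 18 lower, where 36.5% of all genes were called (18.0% higher, 18.4% lower; medians -0.73 and -0.01). Library totals alone shifted all genes by -0.29 in BALF against BMDM and by -0.25 in BALF against PLF, where the members' calls became 18 higher and 4 lower. No called gene turned direction under another scaling.

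**Figure D5:**
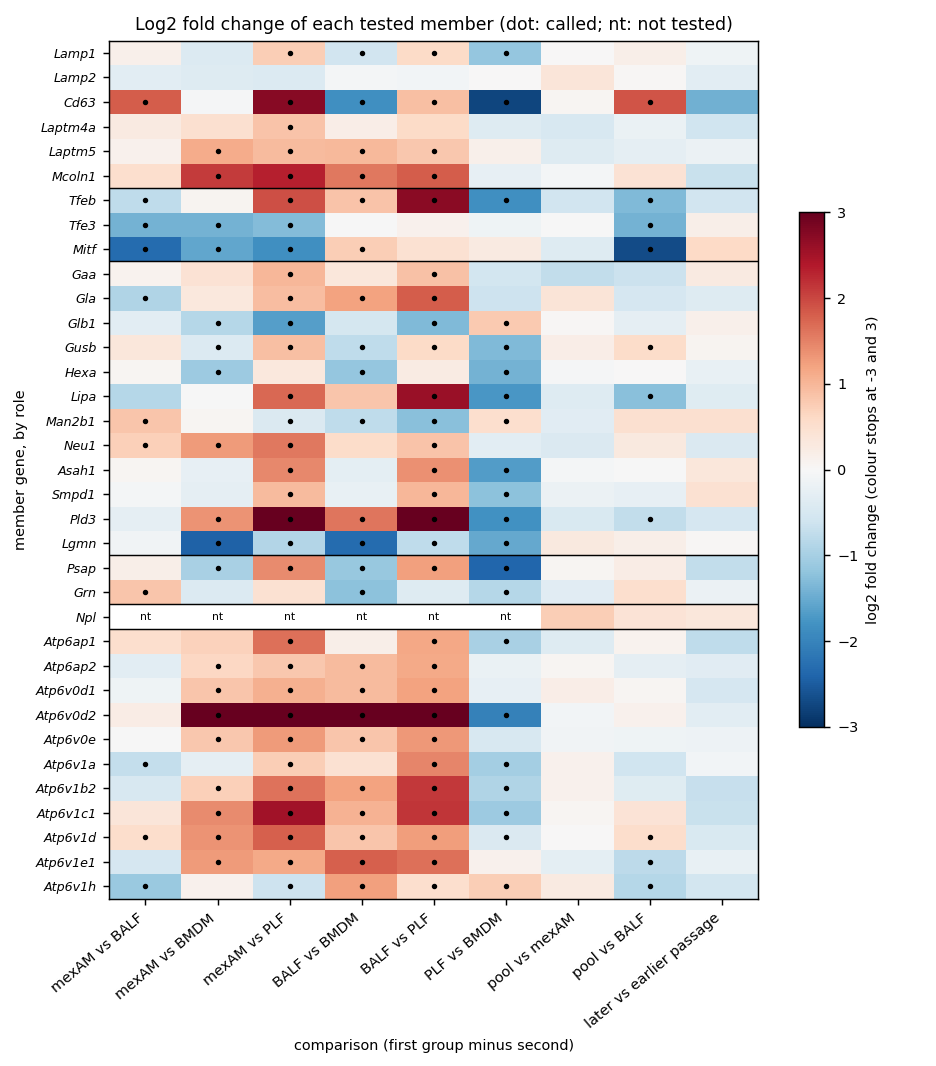
Log2 fold change (colour, first group minus second, limited to -3 and 3) of each of the 36 genes except Atp6v0c (rows, grouped by role) in the 9 comparisons (columns); dots mark calls at an edgeR adjusted p under 0.05, and nt marks a gene not tested. The 3 factor rows are blue in mexAM against BALF, from -2.30 to -0.76, and the pump rows are mostly red in mexAM and BALF against BMDM and PLF.

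The cultures from lavage pools were compared with mexAM and with BALF. With the 2 passages of each pool summed to 1 column, 0 of 35 genes were called against mexAM by edgeR, where 0.698% of all genes were called (0.519% higher, 0.179% lower). At an unadjusted p under 0.05 there was 1, Gaa, and DESeq2 called 0, where it called 160 of 10681 genes in all. Across the 35 genes the log2 differences ran from -0.73 to 0.73, with a median of -0.05. A missed threshold with 2 pools does not show that the levels were equal. Pump tags per hydrolase tag were 2.70 and 2.42 in pool 1 and 2.50 and 2.13 in pool 2 (earlier, then later passage), within or above the mexAM range.

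Against BALF, 10 of the 35 genes differed in the pools, 3 higher and 7 lower, where 26.0% of all genes were called (13.6% higher, 12.4% lower). Scaling by library totals alone shifted all genes by 0.20 and gave 5 higher and 6 lower. The 3 factors were again lower. Mitf was at 37.6 and 57.0 CPM in pool 1 and 30.2 and 51.3 in pool 2, below all BALF libraries, with a log2 difference of -2.68 ± 0.23 (edgeR adjusted p = 1.3e-07). Tfe3, at 25.4 to 40.9 CPM in the pools, differed by -1.42 ± 0.22 (edgeR adjusted p = 0.000102). Tfeb, at 12.1 to 22.2 CPM, differed by -1.33 ± 0.28 (edgeR adjusted p = 0.00189), which was lost without pool 2 (-1.09, edgeR adjusted p = 0.0581). Cd63 was higher, at 534 to 2043 CPM, by 1.88 ± 0.36 (edgeR adjusted p = 0.000941), and Atp6v1h was lower, at 141 to 222 CPM, by -0.85 ± 0.21 (edgeR adjusted p = 0.0051), a call lost without pool 1 (-0.80). The other calls were Gusb (0.56), Atp6v1d (0.53), Lipa (-1.24), Pld3 (-0.73) and Atp6v1e1 (-0.78). Each of these 5 was lost without at least 1 pool. A block for the mice among the 12 single-mouse libraries, with a separate term for the pools and no pool paired with a mouse, left Gusb (edgeR adjusted p = 0.0616), Pld3 (edgeR adjusted p = 0.056) and Atp6v1d (edgeR adjusted p = 0.0643) short of the threshold. These comparisons use the same BALF libraries as mexAM against BALF.

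Between the later and the earlier passages, 0 of 35 genes were called by edgeR, where 1 gene of 10527 was called (0.00950%). At an unadjusted p under 0.05 there were 9, 2 higher (Mitf, Man2b1) and 7 lower (Cd63, Psap, Atp6ap1, Atp6v1b2, Atp6v1c1, Atp6v1d, Atp6v1h). The share of all genes at that unadjusted p was not computed. DESeq2 tested 34 of the genes and called 2 of these 9, both lower. It called 38 of 6662 genes in all (18 higher, 20 lower). Atp6v1c1 went from 445 to 380 CPM in pool 1 and from 586 to 310 in pool 2 (log2 -0.69 ± 0.18, DESeq2 adjusted p = 0.0346). Atp6v1d went from 633 to 435 CPM and from 574 to 495 (log2 -0.48 ± 0.13, DESeq2 adjusted p = 0.0435). Cd63 went from 2043 to 1020 CPM and from 1920 to 534 (log2 -1.43 ± 0.39, edgeR adjusted p = 0.328). Atp6v0d2 stood at 2137 and 1823 CPM in pool 1 and at 2265 and 1886 in pool 2. By CPM, 9 of the 11 pump genes above were lower at the later passage in both pools and 0 were higher in both, while of the 12 hydrolases 5 were lower and 4 higher in both. The share of all genes that moved one way in both pools was not computed, so these counts have no background. Whether the pump genes fell together was not tested. The fit's spread comes mostly from the libraries of single mice, and the passages compared differ between the pools.

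Further genes of the pathway, from lists of the same design, were counted by the same tests. Of 13 other pump genes 6 were tested, with 0 calls by edgeR or DESeq2 for mexAM against BALF and for BALF against BMDM (1 at an unadjusted edgeR p under 0.05 in each). There edgeR called 30.0% and 37.4% of all genes. In mexAM over BMDM 2 were higher, Atp6v1f (0.98 ± 0.26) and Atp6v1g1 (0.76 ± 0.23), beside 21.5% of all genes. Over PLF 5 were higher in each alveolar group, beside 28.4% of all genes in mexAM and 19.5% in BALF. Among them was Tcirg1, the a3 subunit of the V0 sector (1.496 ± 0.196 in mexAM, 1.52 ± 0.20 in BALF). Of 28 other hydrolases and activators 27 were tested, and 7 were higher and 3 lower in mexAM than in BALF, where 30.0% of all genes were called. The largest called differences were Acp5, tartrate-resistant acid phosphatase (-3.09 ± 0.43, edgeR adjusted p = 8.79e-05), Hgsnat, which acetylates heparan sulphate (2.09 ± 0.29), and Pla2g15, a phospholipase (1.48 ± 0.24). Against BMDM 10 were higher and 6 lower in mexAM (44.6% of all genes called), and Sgsh, a sulfamidase, stood at 55.1, 52.8 and 33.1 CPM in BMDM against 0.412 to 4.65 CPM in mexAM, with 1 count in all 3 BALF libraries. Of 18 other membrane and sorting genes 4 were higher and 2 lower in mexAM than in BALF, again beside 30.0%, and Sort1, the sorting receptor sortilin, was higher in mexAM by 1.33 ± 0.19 over BALF and by 4.45 ± 0.22 over BMDM. Tpcn1, a lysosomal cation channel, was at 93.3 to 97.4 CPM in BMDM and at 0.581 to 2.06 CPM in the BALF and mexAM libraries, and was called lower in both. Of 14 genes that control the factors, 4 were higher and 1 lower in mexAM than in BALF: Fnip2, a partner of folliculin, was lower (-1.39 ± 0.27, edgeR adjusted p = 0.00104), and Mtor (1.38 ± 0.28, edgeR adjusted p = 0.0012) and Lamtor4 (1.20 ± 0.22, edgeR adjusted p = 0.000625) were among those higher. For these lists the shares called between mexAM and BALF lay near that of all genes, apart from the other pump genes with 0 of 6.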

How the data were processed

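RNA from all 16 samples was made into QuantSeq 3′ FWD libraries with a UMI module, per the labels' protocols. The authors deposited raw whole-number counts per gene, on GRCm38 (mm10) per the submitters' processing notes. The sources used here do not give the aligner, the counter, its strand setting or whether UMIs were collapsed. The members and all gene lists were chosen with earlier results of these data known.

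Lines that name no gene were left out of library sizes, and the no-feature line among them held 10.6% to 29.9% of a library's counts. CPM was computed as counts per 1000000 counts in genes. edgeR 4.0.16 (R 4.3.3) filtered low counts (filterByExpr), applied TMM scaling and ran quasi-likelihood tests with Benjamini-Hochberg adjustment, threshold 0.05. The 12 libraries of single mice formed 1 fit (10011 genes, 8 residual degrees of freedom), those with 1 summed column per pool another (10602 genes, 9) and all 16 libraries another (10527 genes, 10). The scripts were tested on simulated data. Alternatives were DESeq2 1.42.0, other scalings, no filter, removal of Gm42418 and mitochondrial genes, a replicate block and leaving out each library.

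Genes given in full were those called between mexAM and BALF, in the other comparisons of the 4 groups up to 3 called genes per role with the largest change and at least 10 CPM, and Atp6v0d1, Atp6v0d2, Tfeb, Tfe3, Mitf, Lamp1 and Lamp2. Hexa was added after its values were seen. Of the other pathway lists, genes named were among the 3 largest called changes of a list. The mouse numbers in the labels were taken to mark the same animal, so groups can be paired. Deviations from group means correlated between same-numbered libraries by -0.12 to 0.22 over 18 pairs (median -0.02), with 2 pairs above 0.1. Nothing in the sources says how many cultures each mouse gave, so p-values measure the spread between these libraries. Depth limits low genes such as Tfeb and Mcoln1.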

Additional observations from a re-analysis of the deposited data

How the results depend on the processing

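Of 143 calls of a gene in a comparison, 109 held in every setting in which the gene was tested and 34 were lost in at least 1, and no call reversed. The count for mexAM against BALF, 11, was 7 without BALF of mouse 1 or 2 and 7 to 10 over all leave-one-out fits. That for the pools against BALF, 10, was 5 to 9, with 6 without BALF of mouse 1 or 2 and 5 without pool 1 or pool 2. Leaving out a library gave 16 to 20 for mexAM against BMDM, 28 to 32 for mexAM against PLF, 21 to 24 for BALF against BMDM, 25 to 28 for BALF against PLF, 18 to 21 for PLF against BMDM, and 31 to 34 for the 4-group test. For later against earlier passages the count of 0 became 1 without the low-count filter and 2 with DESeq2. Of all genes, 80 of 20730 and 38 of 6662 were called in these 2 settings. With the mouse number as a replicate block the counts were 11, 18, 30, 23, 27 and 20 for the 6 comparisons in the order mexAM against BALF, BMDM and PLF, BALF against BMDM and PLF, and PLF against BMDM, and 32 for the 4-group test, where Laptm4a was lost. For the pools against mexAM, the pools against BALF and the passages a replicate block of mouse terms and separate pool terms, which pairs no pool with a mouse, gave 0, 7 and 0. Beyond the pool calls already given, the block ended the calls of Gusb in mexAM against BMDM (edgeR adjusted p = 0.0658), Man2b1 in mexAM against PLF (edgeR adjusted p = 0.0589), Atp6v1h in BALF against PLF (edgeR adjusted p = 0.0737) and Atp6v1d in PLF against BMDM (edgeR adjusted p = 0.0724).

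The log2 pump to hydrolase ratio depended on the genes summed. Adding Psap, Grn and Npl to the hydrolases gave -0.028 for mexAM against BALF, 1.57 for mexAM against BMDM, 1.60 for BALF against BMDM, 0.79 for BALF against PLF, 0.81 for PLF against BMDM, 0.12 for the pools against BALF and -0.011 for later against earlier passages. Widening both lists gave -0.091, 0.93 and 1.31 for mexAM against BALF, BMDM and PLF, 1.40 for BALF against PLF, -0.38 for PLF against BMDM, 0.40 and 0.31 for the pools against mexAM and BALF and 0.034 for the passages. Dropping Atp6v0d2 and Lipa gave -0.31 and 0.94 for mexAM against BALF and BMDM, 1.25 and 0.96 for BALF against BMDM and PLF, 0.29 for PLF against BMDM, -0.12 for the pools against BALF and -0.31 for the passages. The mean over genes of log2(CPM + 1) gave -0.23, 1.12, 1.35 and 0.96 for mexAM against BALF, mexAM against BMDM, BALF against BMDM and BALF against PLF, 0.041 for the pools against BALF and -0.33 for the passages. The cause of these shifts was not tested beyond the genes each sum holds. Genes under about 40 CPM, such as Tfeb, Mcoln1, Gaa and Smpd1, rest on few counts per library, and Npl and Atp6v0c could not be tested between the groups of single mice.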
